A study of Mus musculus with 2 samples.

Results

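The collagen genes are the 44 protein-coding mouse genes whose symbol has the form Col, a type number, the letter a and a chain number. They were picked by symbol alone, from 43346 gene rows of which 21474 are protein-coding, and no measured value entered the choice. For reading they were sorted by textbook class: 11 fibrillar chains, 6 chains of basement membrane type IV collagen, 9 fibril-associated chains (FACIT collagens), 6 type VI chains, 3 short chain network formers, 4 transmembrane chains, 2 multiplexins, the anchoring fibril chain Col7a1, and Col26a1 and Col28a1 as a remainder.

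Polyadenylated RNA from whole lung of adult C57BL/6J mice, aged 8 weeks, was sequenced as 2 libraries that form 1 group. The labels list pooled male and female littermates, the same donor record for both libraries, an unknown health state and no treatment, and they leave the number of animals open. Expected counts on gene rows came to 48234745 in replicate 1 and 44182836 in replicate 2. With 1 group there is no test and no p-value below, a difference is one between these libraries, and the spread between them may be technical in part. Levels are in TPM, a per-length scale that sums to the same total in each library, with the replicate 1 value before the replicate 2 value. Coordinates are on mm10.

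Collagens are the main structural proteins of the extracellular matrix. Each chain carries a repeat of Gly-X-Y amino acid triplets, and chains wind around each other into a triple helix because glycine, the smallest residue, fits at its centre. Fibrillar collagens build the tensile fibrils around airways, vessels and in alveolar septa, type IV collagen forms the sheet of the basement membrane between alveolar epithelium and capillary endothelium, and type VI collagen forms beaded filaments near that sheet.

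Fibrillar and type IV chains differ in how the repeat runs through the coding sequence, and a coding exon from each of 4 abundant chains is shown to make the difference visible. Each is written 5′ to 3′ on the coding strand, in frame, from the GENCODE M21 transcript with the longest coding sequence, and capitals mark the glycine codons (GGN). The first 2 are, for each fibrillar gene, the first exon of 54 bases with an unbroken repeat, and the other 2 are, for each type IV gene, the first exon of middle size that holds a break in it. They lie at chr11:94939904-94939957 (Col1a1, plus strand), chr1:45325360-45325413 (Col3a1, plus strand), chr8:11244486-11244569 (Col4a1, minus strand) and chr8:11402163-11402234 (Col4a2, plus strand).
Col1a1: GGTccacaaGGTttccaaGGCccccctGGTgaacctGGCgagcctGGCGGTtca
Col3a1: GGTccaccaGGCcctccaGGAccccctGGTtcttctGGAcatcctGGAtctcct
Col4a1: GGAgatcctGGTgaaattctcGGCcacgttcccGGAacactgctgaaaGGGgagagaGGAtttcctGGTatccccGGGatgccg
Col4a2: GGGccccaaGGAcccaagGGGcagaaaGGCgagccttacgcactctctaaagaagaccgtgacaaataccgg

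Both fibrillar exons had 54 bases, began with a glycine codon and kept one at the start of every triplet. The Col1a1 exon held 7 GGN codons among 18 and the Col3a1 exon 6 among 18. In the type IV exons the register slipped: the Col4a1 exon had 8 GGN codons among 28 with uneven spacing, and the Col4a2 exon had 4 among 24, all near its start. Over the whole coding sequence, the longest unbroken run of such triplets was 216 to 344 in the 11 fibrillar chains, with 338 in Col1a1, 339 in Col1a2 and 344 in Col3a1. The 6 type IV chains had longest runs of 39 to 66 triplets and were broken into 22 to 27 runs of at least 5 triplets, against 2 to 3 runs in fibrillar chains. Exons of exactly 54 bases numbered 21 to 33 per fibrillar gene and 1 to 3 per type IV gene. Type VI chains had longest runs of 37 to 87 triplets, FACIT chains 32 to 113, and the 3 short chain network formers 60 to 61 with no exon of 54 bases. These classes and the transmembrane chains (40 to 56) overlapped one another, except that the transmembrane chains lay below the short chain network formers.

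**Figure D1:**
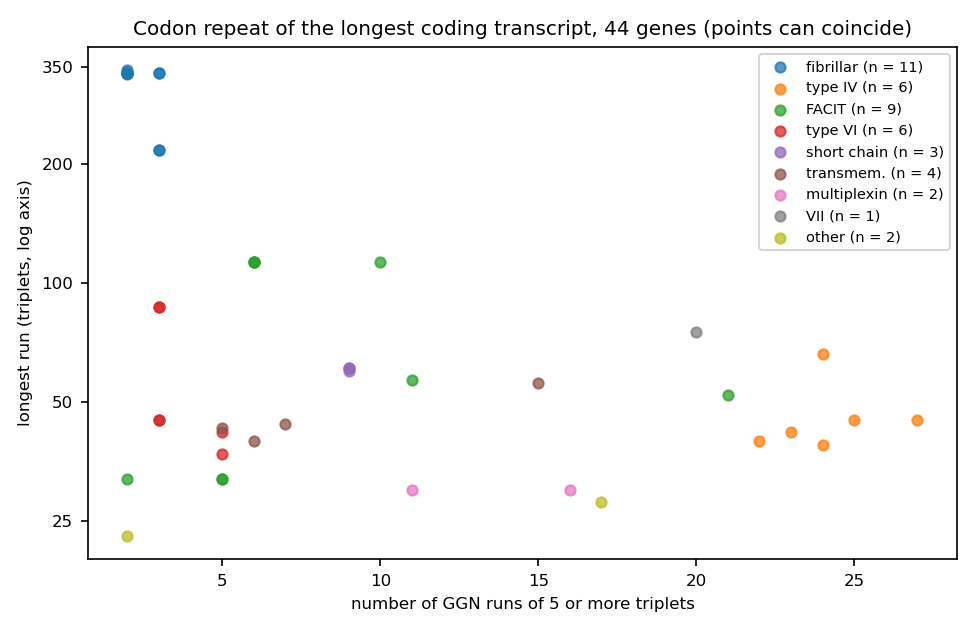
Number of GGN runs of at least 5 triplets (horizontal axis) against the longest run in triplets (vertical log axis) for each of the 44 collagen genes, coloured by class. Fibrillar chains lie at the top left with 2 to 3 runs of 216 to 344 triplets, and type IV chains at the lower right with 22 to 27 runs of at most 66.

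Lung identity was checked with Nkx2-1, Scgb1a1, Foxf1 and Tbx4, and all 4 were present in both libraries, at 71.3 TPM or more. The libraries stood apart in genes of other tissues. The 9 squamous and basal epithelium markers summed to 4184 TPM in replicate 1 and 2.21 TPM in replicate 2, where Krt6a, Krtdap and Dsg3 had 0 counts. The 8 skeletal muscle markers summed to 2810.2 and 56.9 TPM, the 6 intestine and pancreas markers to 3.76 and 198 TPM, and the 4 blood markers to 21922 and 61268 TPM. Summed markers of cell types that make collagen in lung were closer. They were 3581 and 3628 TPM for fibroblasts, 3573 and 3585 TPM for endothelium, and 1467 and 1087 TPM for smooth muscle and pericytes. Such sums are weighted to the highest genes, among them Inmt (1431 and 1476 TPM) and Egfl7 (1797 and 1797 TPM). After scaling for library composition, single markers went both ways. Of the fibroblast markers 3 were higher in replicate 1 and 6 in replicate 2, and endothelial markers split 4 and 4. In whole tissue, fewer cells of a type and less RNA per cell cannot be told apart.

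Collagen genes together held 1597 TPM in replicate 1 and 1478 TPM in replicate 2, or 0.154% ± 0.00843 of all TPM (SD, n = 2). By expected counts their share was 0.613% ± 0.00195 (SD, n = 2). Detection meant reaching 1 TPM in each library, which 60.5% of protein-coding genes reached and 31 of the 44 collagen genes did. These 31 held 99.8% ± 0.101 of collagen TPM (SD, n = 2). All 6 type IV chains and both multiplexins were detected, along with 8 of 11 fibrillar, 5 of 9 FACIT, 3 of 6 type VI, 2 of 3 short chain and 3 of 4 transmembrane chains.

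Type IV chains made up the largest share of collagen TPM, at 35.2% ± 0.41 (SD, n = 2), with sums of 558 and 525 TPM. Type VI chains followed at 26.3% ± 0.88, or 411 and 399 TPM, and fibrillar chains at 25.7% ± 0.68, or 418 and 373 TPM. The order of these last 2 classes differed between the libraries, fibrillar chains being ahead in replicate 1 and type VI chains in replicate 2. FACIT chains held 4.27% ± 0.24, multiplexins 3.97% ± 0.06 and transmembrane chains 3.63% ± 0.57. Short chain network formers (0.41% ± 0.11), Col7a1 (0.30% ± 0.09) and the remaining pair (0.11% ± 0.01) were minor. The 7 genes of highest mean level, Col4a1, Col4a2, Col6a1, Col6a2, Col1a2, Col1a1 and Col3a1, held 72.8% of collagen TPM in replicate 1 and 75.9% in replicate 2.

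**Figure D2:**
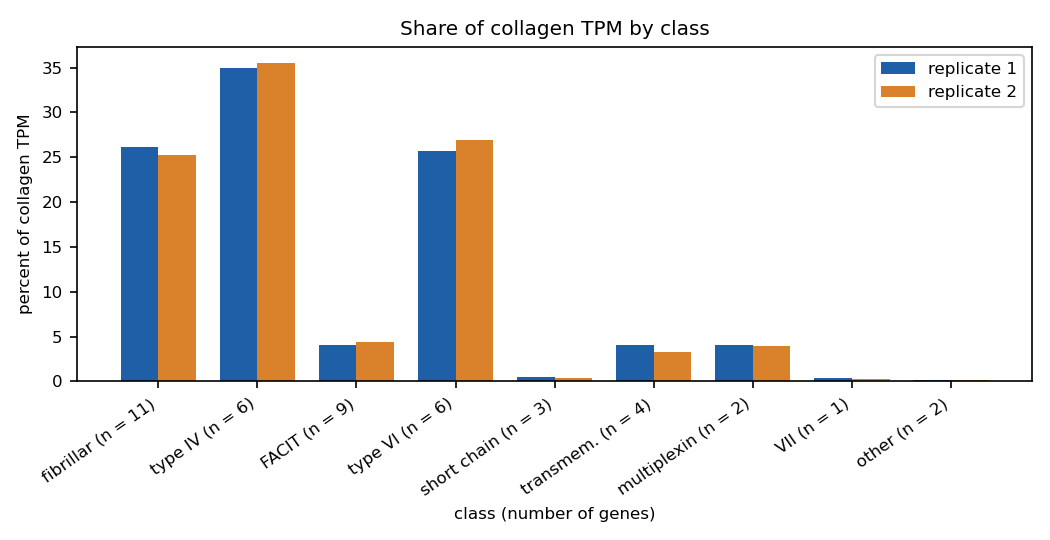
Percent of collagen TPM (vertical axis, from 0) held by each class in replicates 1 and 2, with the number of genes under each class. Type IV holds the largest share in both libraries, and type VI and fibrillar chains swap places between them.

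Ranked by mean TPM, neighbouring genes were often not separable. Among the 30 neighbouring pairs of detected collagen genes, the replicate ranges overlapped in 21 and were separate in 9. The top 3 were in the same order in both libraries.

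Col4a1 and Col4a2, the chains of the basement membrane network found in nearly all tissues, were the most abundant collagen mRNAs. Col4a1 (chromosome 8, 11198423 to 11312826) stood at 236 and 237 TPM and ranked 456 among protein-coding genes by mean TPM. Col4a2 (chromosome 8, 11312805 to 11449287) stood at 210.1 and 203 TPM, rank 557. Both libraries had slightly more Col4a1 than Col4a2, with a ratio of 1.12 and 1.17.

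Col4a3, Col4a4 and Col4a5 form the tougher network of the alveolar and glomerular basement membranes and are the genes of Alport syndrome. Col4a3 was at 57.9 and 40.8 TPM, Col4a4 at 23.5 and 17.8 TPM and Col4a5 at 24.8 and 21.2 TPM. Col4a6, which pairs with Col4a5 chains in smooth muscle basement membranes, was lower at 6.44 and 4.62 TPM. All 4 values were higher in replicate 1 on the TPM scale, and for each gene the range lay apart from that of Col4a1 and Col4a2.

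These 6 genes sit in 3 head to head pairs, and on scaled counts the members of a pair had ratios between the libraries of the same sign. As 50.2% of all genes averaging 50 counts or more were higher in replicate 1, a shared sign carries little weight. The log2 ratio of replicate 2 over replicate 1, after scaling for library composition, was 0.24 for Col4a1 and 0.18 for Col4a2, whose gene models overlap by 22 bases. It was -0.24 for Col4a3 and -0.16 for Col4a4, which are 71 bases apart on chromosome 1, and -0.06 for Col4a5 and -0.19 for Col4a6, 1308 bases apart on chromosome X. On log2(TPM + 0.1) the first pair stood at 0.01 and -0.05, so that sign is not fixed by the data. The other 4 genes stayed below 0 on that scale, as did the median over all genes. The libraries are stranded, and these values describe 1 pair of libraries. The sequence between the Col4a4 and Col4a3 gene models is shown to make their closeness visible, written on the Col4a4 strand (chr1:82586850-82586920, minus strand, RefSeq window on GRCm38.p6).
Col4a4: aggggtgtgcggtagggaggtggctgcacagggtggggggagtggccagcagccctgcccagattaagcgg
It held none of the 3 promoter motifs searched on both strands, none of which contains another, so no letter is in capitals. The GC box was searched as GGGCGG, the TATA box by its usual letters TATAAA, and the CCAAT box by the letters of its name.

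A RefSeq window of 300 bases around the start site was found for 35 of the 44 collagen genes, in 38 windows. GGGCGG occurred in 23 of the 38 windows, against 35.7% of all 32851 windows. By gene it occurred for 22 of the 35, including Col4a1, Col4a2, Col4a5, Col4a6 and Col1a2. CCAAT occurred in 13 of the 38 windows, from 13 genes, against 37.4% of all windows. TATAAA occurred in 5 of the 38, against 13.6% of all windows, for Col3a1, Col10a1, Col11a2, Col13a1 and Col17a1. The collagen windows had a median GC content of 59.8% against 52.7% over all windows. A match is a description of the letters and not evidence of binding.

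The fibrillar class was led by the chains of types I and III, the main fibrils of lung interstitium. Col1a2 (chromosome 6, 4504814 to 4541544) was at 155 and 141 TPM, rank 840. Col1a1 (chromosome 11, 94936224 to 94953042) was at 102 and 100.2 TPM, and Col3a1 (chromosome 1, 45311538 to 45349706) at 113 and 87.9 TPM. Type I protein contains more α1 than α2 chains, but at the mRNA level Col1a1 was below Col1a2 in both libraries, with a ratio of 0.661 and 0.709. A short Col1a2 transcript of 850 bases, Col1a2-205, carried 13.6% and 7.51% of that gene's TPM, and without such short transcripts the ratio was 0.802 ± 0.015 (SD, n = 2).

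Type V collagen nucleates fibrils and limits their width. Col5a1 was at 16.7 and 17.2 TPM, Col5a2 at 15.5 and 10.7 TPM and Col5a3 at 4.06 and 3.74 TPM. The Col5a1 to Col5a2 ratio was 1.08 in replicate 1 and 1.61 in replicate 2, so it was not well fixed by these libraries. Col27a1, a fibrillar chain of cartilage and other tissues, was at 10.2 and 10.4 TPM, and Col11a2 at 1.04 and 1.32 TPM lay just above the detection threshold.

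Type VI collagen is assembled from α1, α2 and a further chain, most often α3. Col6a1 (chromosome 10, 76708792 to 76726168) was at 193 and 189 TPM, rank 610, and its neighbour Col6a2 (chromosome 10, 76595762 to 76623630) at 154 and 163 TPM, rank 775. Col6a3 (chromosome 1, 90765923 to 90843971) was lower, at 62.6 and 45.7 TPM, or 0.324 and 0.242 of Col6a1. The alternatives to α3 were under 1 TPM in both libraries: Col6a4 at 0.39 and 0.15, Col6a5 at 0.91 and 0.38, and Col6a6 at 0.32 and 0.22 TPM. All 3 lie side by side on chromosome 9, with gaps of 27917 and 28810 bases.

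**Figure D3:**
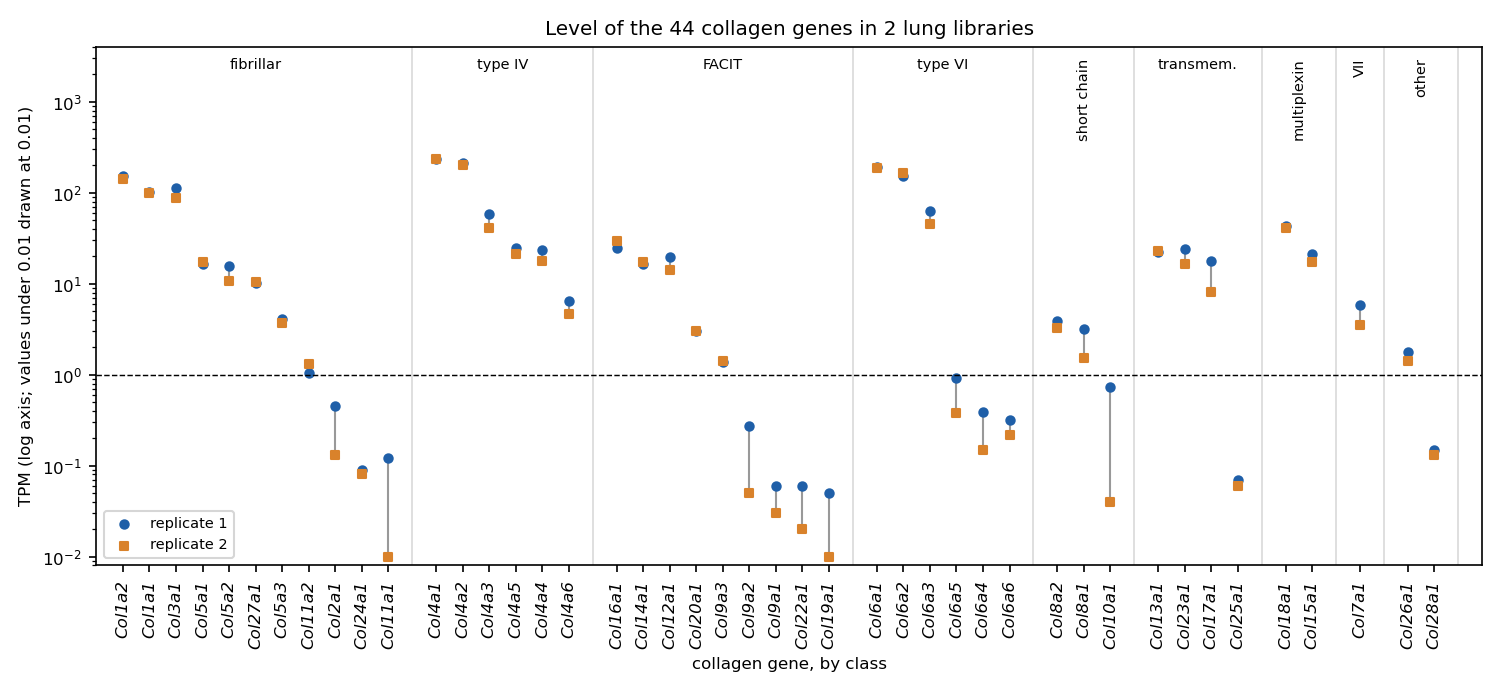
Level of each collagen gene in TPM (log axis, values under 0.01 drawn at 0.01) in replicate 1 (circles) and replicate 2 (squares), grouped by class, with a dashed line at 1 TPM. All 6 type IV chains lie above the line, and the widest gaps between replicates are in genes below it.

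FACIT collagens decorate the surface of fibrils. Col16a1 was at 24.7 and 29.6 TPM, Col14a1 at 16.5 and 17.5 TPM and Col12a1 at 19.5 and 14.0 TPM. Col20a1 was at 3.01 and 3.06 TPM and Col9a3, a chain of cartilage type IX collagen, at 1.39 and 1.43 TPM. As described further on, most of the TPM of all of these but Col20a1 sat on transcripts that did not meet the definition of a long transcript given there.

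The multiplexins Col18a1 and Col15a1 are basement membrane collagens whose C-terminal part includes endostatin or a related fragment. Col18a1 (chromosome 10, 77052178 to 77166548) was at 42.6 and 40.8 TPM, and Col15a1 (chromosome 4, 47208161 to 47313167) at 21.5 and 17.2 TPM. Col7a1, the anchoring fibril chain beneath stratified epithelia, was at 5.83 and 3.49 TPM. Col8a1 and Col8a2, the short network-forming chains of vessel walls and the cornea, were at 3.21 and 1.54 TPM and at 3.88 and 3.28 TPM.

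Transmembrane collagens are anchored in the cell membrane. Col13a1, found at cell adhesions and the neuromuscular junction, was at 22.4 and 23.0 TPM, and Col23a1 at 23.98 and 16.6 TPM. Col17a1, the hemidesmosome collagen that ties basal epithelial cells to their basement membrane, was at 17.9 and 8.07 TPM. Col26a1, of the remainder, was at 1.76 and 1.41 TPM.

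The 13 genes below the detection threshold summed to 3.67 TPM in replicate 1 and 1.29 TPM in replicate 2. Just under the line in replicate 1 were Col6a5, given above, and Col10a1, the collagen of hypertrophic cartilage, at 0.73 and 0.04 TPM. Col2a1 and Col11a1, the fibrillar chains of cartilage, were at 0.45 and 0.13 TPM and at 0.12 and 0.00 TPM. Col9a1 and Col9a2 of cartilage type IX were at 0.06 and 0.03 TPM and at 0.27 and 0.05 TPM. Col28a1, Col24a1, Col25a1 and Col22a1 were at 0.15 TPM or less in both libraries. Col19a1 had 9 counts in replicate 1 and 0 in replicate 2, where a count of 0 allows up to 3 counts, and the lower bound of its 95% exact interval was 1.65-fold higher in replicate 1. Every collagen gene had counts in at least 1 library.

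Gene totals sum over transcripts, and for some collagens the deposited split placed most of the TPM on short transcripts. TPM is per length, so a short transcript can hold much of it on few counts. A transcript is called long here if its annotated coding sequence, and its own length, reached at least 0.5 of the gene's longest coding sequence. This split was chosen after the data had been seen, and it rests on how the authors' quantification assigned fragments. Of the 31 detected genes, 29 had the same leading transcript in both libraries, the exceptions being Col4a3 and Col27a1. In 9 of the 31 the leading transcript of replicate 1 was not a long one. On long transcripts alone 28 genes were detected, Col9a3, Col26a1 and Col11a2 falling below 1 TPM.

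Col12a1-204, with 1784 bases, carried 75.6% of Col12a1 TPM in both libraries, and its long transcripts stood at 4.22 and 2.57 TPM. Col14a1-204, with 2085 bases, carried 63.0% and 72.7%, leaving 6.11 and 4.76 TPM on long forms. Col16a1-207, a processed transcript of 833 bases, carried 40.2% and 45.9%, and long forms of Col16a1 held 7.51 and 8.42 TPM. A further 21.6% and 17.2% sat on Col16a1-202. That processed transcript has 4574 bases and was not counted as long because it has no annotated coding sequence. For Col9a3, whose leading transcript was a retained intron of 749 bases, long forms held 0.42 and 0.19 TPM. On long transcripts alone the FACIT share of collagen TPM was 1.51% and 1.41%. By expected counts, long forms held 1713 of 2589 and 1014 of 1680 for Col12a1, and 1377 of 2082 and 1047 of 1887 for Col14a1. They held 1345 of 2424 and 1471 of 2570 for Col16a1, and 39.7 of 58 and 17.7 of 40 for Col9a3. Most counts were thus on long forms, except for Col9a3 in replicate 2.

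Among type IV genes, the split changed the α3 and α5 levels. Col4a3-204, of 627 bases and lying near the 3′ end of the gene, carried 49.8% and 46.7% of Col4a3 TPM on 435 and 280.2 expected counts, while the long Col4a3-201 had 8452 and 5934 expected counts. The Col4a3 to Col4a4 ratio was 2.46 and 2.29 over all transcripts and 1.22 and 1.14 over long ones. Col4a5-204, of 3511 bases, carried 53.97% and 59.3% of Col4a5 TPM, and the Col4a5 to Col4a6 ratio went from 3.85 and 4.59 to 1.87 and 1.85. The Col4a1 to Col4a2 ratio was not altered, at 1.14 ± 0.030 over long transcripts (SD, n = 2).

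**Figure D4:**
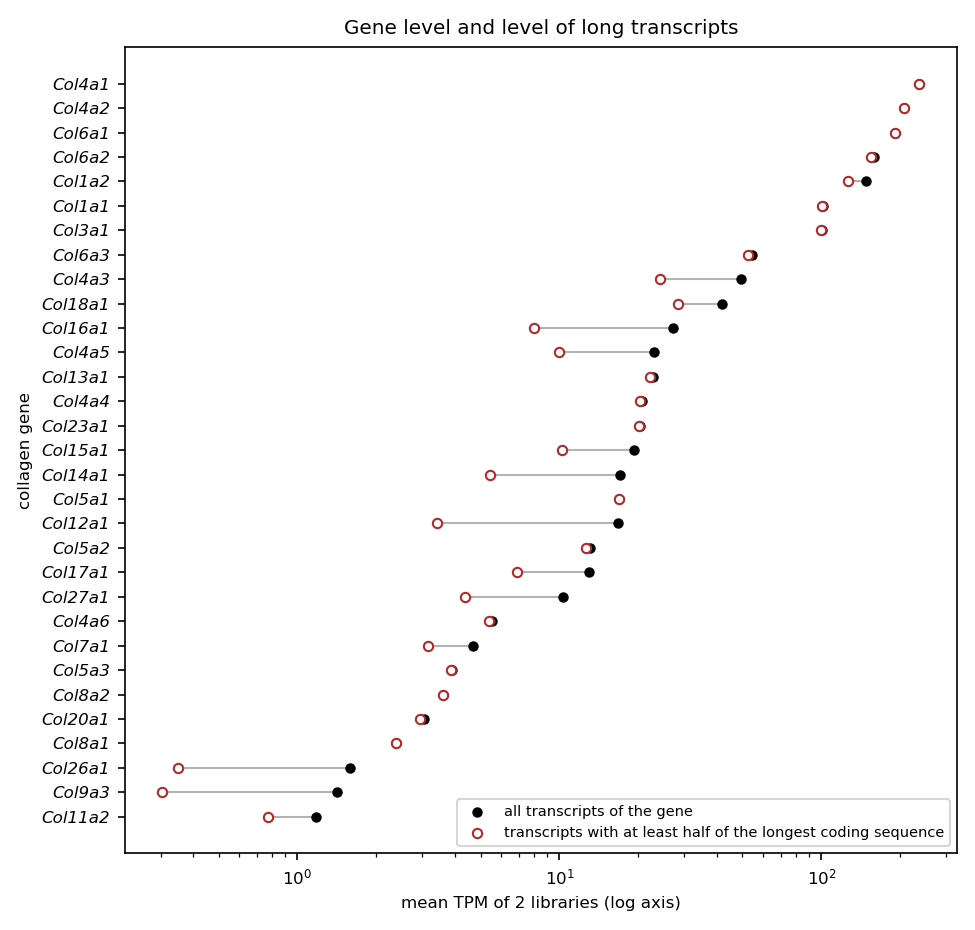
Mean TPM of 2 libraries (log axis) over all transcripts (filled) and over long transcripts (open) for the 31 detected collagen genes, ordered by gene level. The 2 marks coincide for Col4a1, Col4a2, Col6a1, Col1a1 and Col5a1 and lie apart for Col12a1, Col14a1, Col16a1, Col4a3 and Col4a5.

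Col18a1 makes short and long forms that differ at the N terminus and are known from vascular and from epithelial basement membranes. Col18a1-202 led in both libraries with 57.6% and 49.0% of the gene's TPM. The form with the longest coding sequence, Col18a1-201 of 6338 bases, had 84.3 expected counts and 0.89% of TPM in replicate 1 and 1619 expected counts and 18.3% in replicate 2. A transcript of 1956 bases with no entry in the later annotation took 36.7% and 25.2%. At the gene level the log2 ratio on scaled counts was 0.38, while the TPM values were 42.6 and 40.8. Col15a1-202 carried 42.0% and 61.5% of Col15a1. The 404-base Col15a1-206 carried 21.3% in replicate 1, on 32.3 expected counts, and was listed at 0 in replicate 2.

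Between the libraries, no well counted collagen gene differed 2-fold. Of the 31 collagen genes averaging 50 counts or more, 0 passed 2-fold on the scaled count scale, where 6.66% of all 14708 genes with that count did. On log2(TPM + 0.1), Col17a1, Col8a1 and Col6a5 passed it, 3 of 31 against 8.28% of all genes. Their log2 ratios ran from -0.85 to 0.44 with a median of 0.12, against -0.00 over all genes, and 14 of the 31 were higher in replicate 1, where 50.2% of all genes were. The median size of the log2 ratio was 0.24 for collagen genes and 0.28 for all genes. Over the 17334 genes averaging 10 counts or more, the median was -0.02 with scaling and -0.15 without it. It was -0.22 on log2(TPM + 0.1). On that scale 8 of the 31 detected collagen genes changed sign, a set of which only 29 averaged 50 counts or more.

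Col17a1 was the furthest from equal. It had 1968 counts in replicate 1 and 913 in replicate 2 and was 1.80-fold higher in replicate 1 (95% exact Clopper-Pearson interval 1.66 to 1.95, counting error only), with a log2 ratio of -0.85. On log2(TPM + 0.1) its difference was -1.14. Col17a1 is made by basal epithelial cells, and the basal keratins Krt5 (86.6 and 0.70 TPM) and Krt14 (45.6 and 0.47 TPM) and the basal cell regulator Trp63 (4.56 and 0.45 TPM) were also higher in replicate 1, as were all 9 markers of the list. The list was led by the squamous keratins Krt13 (1725 and 0.24 TPM) and Krt4 (1536 and 0.24 TPM). Their part in the Col17a1 difference was not tested. Col7a1, another collagen of stratified epithelium, had a log2 ratio of -0.23.

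Col8a1 was next, with 567 and 266 counts, 1.78-fold higher in replicate 1 (interval 1.53 to 2.06). Its partner Col8a2 had 578 and 477 counts and a log2 ratio of -0.02, so the Col8a1 to Col8a2 ratio went from 0.827 to 0.470. Smooth muscle and pericyte markers, which include cells of the vessel wall, summed to 1467 and 1087 TPM, and on scaled counts 5 of 10 genes were higher in replicate 1 and 5 in replicate 2. By log2 ratio on that scale, Des (-0.50) and Acta2 (-0.49) were furthest towards replicate 1 and Cox4i2 (0.38) and Cnn1 (0.22) towards replicate 2. Their part in the Col8a1 difference was not tested.

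Several of the scarce collagens were uneven. With the minimum lowered to a mean of 10 counts, 6 of 42 collagen genes passed 2-fold, where 10.1% of all genes did in either direction. Each of the 6 was higher in replicate 1. At such counts a gene can reach the minimum through 1 library alone, so the shared direction carries little weight. Among all genes averaging 50 counts or more, 4.45% were 2-fold higher in replicate 1 and 2.21% in replicate 2. Col10a1 had 77 and 4 counts, a 16.1-fold difference (interval 6.02 to 60.4). Col2a1 had 76 and 8 counts (7.93-fold, 3.82 to 19.0), and Col11a1 had 33 and 1 counts (27.5-fold, 4.61 to 1119.9). Col9a2 had 26 and 1 counts (21.7-fold, 3.56 to 889) and Col6a4 68 and 27 (2.10-fold, 1.33 to 3.41). Col22a1 had 19 and 7 counts (2.26-fold), with an interval of 0.91 to 6.37 that includes no difference, and its log2 ratio of -1.003 became -0.99 with DESeq2 size factors, short of 2-fold.

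Of these, Col2a1, Col9a2, Col10a1 and Col11a1 are cartilage collagens. The cartilage list summed to 4.52 and 2.29 TPM, with 0 of 9 markers detected in both libraries and none at 0 counts. Acan, the main cartilage proteoglycan, had 96 and 8 counts, Comp 93 and 31 and Snorc 12 and 3, while Sox9, which epithelium also expresses, had 120 and 168. The part of cartilage in these differences was not tested. Other collagens that cartilage makes had log2 ratios nearer to 0. These were 0.23 for Col11a2, 0.44 for Col27a1, -0.26 for Col9a3 and -0.82 for Col9a1. Col9a1 had 8 and 3 counts (2.22-fold higher in replicate 1, interval 0.53 to 13.0). The prior count of 2 draws the log2 ratio towards 0 at such counts, and the folds carry no prior count. Long forms of Col9a3 alone had 39.7 and 17.7 expected counts.

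**Figure D5:**
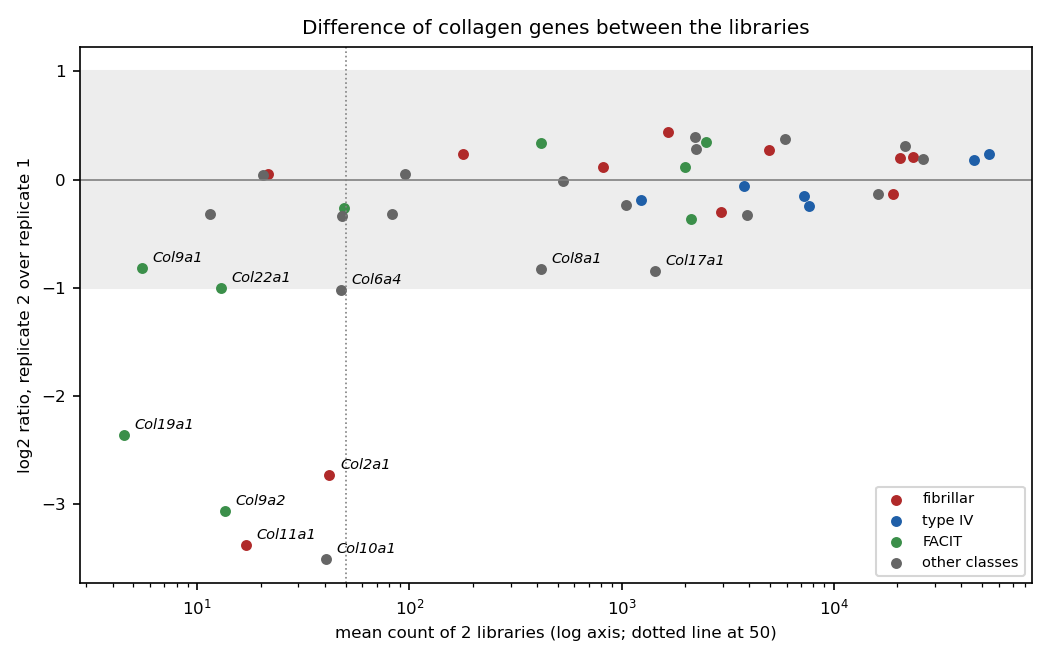
Log2 ratio of replicate 2 over replicate 1 for each collagen gene against its mean count (log axis, dotted line at 50), coloured by class, with the band within 2-fold in grey. Genes to the right of the dotted line all lie within the band, Col17a1 and Col8a1 being the lowest there, while Col10a1, Col2a1, Col11a1 and Col9a2 lie far below it at low counts.

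By class, and over genes averaging 10 counts or more, fibrillar chains had a median log2 ratio of 0.12 (11 genes) and type IV chains -0.11 (6 genes). The fibrillar median was -0.02 by library size and -0.12 on log2(TPM + 0.1). FACIT genes had a median of -0.26 (7 genes), which turned to 0.02 on log2(TPM + 0.1) and to 0.23 over the 4 genes averaging 50 counts or more. Short chain network formers had a median of -0.83 (3 genes), transmembrane genes -0.32 (4 genes) and type VI genes -0.04 (6 genes). Both multiplexins were higher in replicate 2, with log2 ratios of 0.38 and 0.39, but on log2(TPM + 0.1) the values were -0.06 for Col18a1 and -0.32 for Col15a1. On long transcripts alone, both were higher in replicate 2 by TPM as well. Col18a1 then stood at 26.6 and 30.2 TPM and Col15a1 at 9.03 and 11.4 TPM. All collagen genes together had a median of -0.09 over 42 genes, against -0.02 over all genes with such counts.

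Genes that make, modify, bind or degrade collagen were read from a list of 87 measured genes, of which 70 were detected. Of the 77 averaging 50 counts or more, 2 were 2-fold higher in replicate 1 (Lum and Comp), against 4.45% of all genes, and 1 in replicate 2 (P4ha3), against 2.21% of all genes. Lum encodes lumican, a proteoglycan that binds fibrils, and had 13.3 and 5.50 TPM.

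Genes for proline and lysine modification, among them prolyl and lysyl hydroxylases, glycosyltransferases, isomerases and helper proteins, were detected for 15 of 16, led by P4hb, a subunit of prolyl hydroxylase, at 225 and 179 TPM. All 7 folding and export genes were detected, led by Serpinh1, the collagen chaperone HSP47, at 274 and 242 TPM. Of 10 propeptide removal genes 5 were detected, and the enhancer Pcolce led at 256 and 260 TPM.

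Cross-linking enzymes were detected for 6 of 6 genes. Loxl1 was highest at 203 and 217 TPM, and Lox was at 34.8 and 49.1 TPM. On scaled counts (4372 and 6011 before scaling) Lox was 1.65-fold higher in replicate 2 (interval 1.58 to 1.71). Of 12 receptor and uptake genes 9 were detected. Adgrg1, a receptor for type III collagen, led at 129 and 130.1 TPM, and the integrin β1 gene Itgb1 was at 94.5 and 64.0 TPM.

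The discoidin receptors Ddr1 and Ddr2 were at 56.6 and 61.6 TPM and at 37.5 and 28.9 TPM. Among integrin α chains that bind collagen, Itga1, which favours type IV collagen, was at 26.1 and 18.8 TPM, and Itga2, which favours type I, at 2.77 and 1.82 TPM. The Itga1 range lay above that of Itga2.

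Fibril-binding proteins were detected for 10 of 12 genes, with Sparc, a collagen-binding matricellular protein, at 3247 and 2780.0 TPM. Basement membrane partners were detected for 14 of 15 genes, led by mean TPM by the laminin β2 gene Lamb2 at 205 and 176 TPM, with Agrn close to it at 190.0 and 178 TPM and ahead in replicate 2. Of 9 collagen-degrading enzymes 4 were detected, with Mmp2, a gelatinase that cleaves type IV collagen, at 99.0 and 107 TPM.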

How the data were processed

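Expected counts per gene and transcript were deposited by the authors as estimated fragment numbers with no normalization, and rounded here. The TPM and FPKM values were deposited by the authors and are scaled by length and library total over all rows. How each gene's TPM divides over its transcripts, in percent, was deposited by the authors. Build mm10 and GENCODE M4 are named in the deposited file lists, while aligner and quantifier were not given in the sources used here. Rows that are not genes held 1.44% and 1.03% of counts and were left out. Symbols came from GENCODE M21 on the same build (42462 of 43346 gene rows matched), and 3 of 201 collagen transcripts had no entry there. Contigs and junctions on mm9 were not used here.

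Log2 ratios are of TMM-scaled CPM computed from the counts with a prior count of 2 (edgeR 4.0.16, R 4.3.3), and DESeq2 1.42.0 size factors served as an alternative. Other steps used Python 3.11.15, pandas 2.3.3 and scipy 1.17.1. Folds carry an exact Clopper-Pearson 95% interval, which covers counting error only. Scripts were tested on simulated data. Named genes are the collagen genes, the highest gene of each biosynthesis group, Serpinh1, Lox, Ddr1, Ddr2, Itga1, Itga2, Itgb1, any gene of those groups that is 2-fold apart, and markers beside a result; Krt6a, Krtdap, Dsg3 and the basal genes Krt5, Krt14 and Trp63 were chosen after their values were seen. Members and lists were chosen with earlier results of these data known. Coding sequences of GENCODE transcripts were used in place of proteins. Alternatives covered detection thresholds, units, scaling, pseudocounts, count filters, long transcripts and leaving out a replicate.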

Additional observations from a re-analysis of the deposited data

How the results depend on the processing

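Of 70 values recomputed for the main comparisons under other settings, 51 stayed within the spread between replicates (counts of genes, within 1.5 times) and 19 moved. The 51 include chain ratios by FPKM and by counts per effective length, which equal the TPM ratio within a library by construction. Those show nothing about stability. For median log2 ratios the spread used was that of single genes, 0.324, so a median could change sign without counting as moved. Another 28 values left out a replicate, and with 2 libraries such a value lies within 1 SD of the mean by construction, so it shows nothing about stability. The cause was not tested except where the setting itself gives it. The collagen share of TPM, 0.154%, became 0.613% by counts, which weight long genes, 0.205% without the 10 highest genes and 0.138% on long transcripts. Class shares by counts were 42.3% for type IV, 2.51% for FACIT and 29.1% for the other classes (34.8% by TPM), and on long transcripts 26.4% for fibrillar, 36.3% for type IV, 1.46% for FACIT and 35.9% for the others. Chain ratios on long transcripts were 0.802 for Col1a1 to Col1a2, 1.18 for Col4a3 to Col4a4 and 1.86 for Col4a5 to Col4a6. The 2-fold count of 0 became 3 on log2(TPM + 0.1) (Col17a1, Col8a1 and Col6a5, with 8.28% of all genes), 1 on log2(TPM + 1) (5.28% of all genes), 2 on log2(TPM + 0.1) of long transcripts, 6 of 42 at a mean count of at least 10 (10.1% of all genes) and 7 of 44 with no filter (14.5% of all genes). The FACIT median log2 ratio was 0.23 at a mean count of at least 50. Single-gene ratios changed sign for 1 of 44 genes with DESeq2 size factors, 5 by library size and 11 on log2(TPM + 0.1). Depth limits the genes under 50 counts, whose intervals are wide. No paired analysis was possible because there is only 1 group.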
